A study of Mus musculus with 2 samples.

Results

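The globin and haem synthesis genes comprised 9 genes, the alpha globin gene Hba-a1, the beta globin gene Hbb-b1 and 7 genes for enzymes of haem synthesis (Alas1, Alas2, Alad, Urod, Cpox, Ppox and Fech), out of 8949 genes named on the array. They were chosen by name, with earlier results of these data known, so counts of them beside those of all probe sets are no test. Every probe set annotated to any of them was taken, which gave 14 probe sets. Of the 4 globin probe sets, 1 named Hba-a1 alone and 3 named several globin genes. The 10 enzyme probe sets each named 1 gene. RNA was measured on Affymetrix mouse expression arrays in 2 samples of mouse bone marrow cells sorted as Lin-c-kit+Sca1+, a fraction that lacks lineage antigens, carries Kit and Sca-1 and holds the haematopoietic stem cells and early multipotent progenitors. The labels give 1 group and name no genotype, strain, age, treatment or second condition, and they do not say whether samples 1 and 2 came from different animals or sorts. The RNA of both went through 2 rounds of amplification. With 1 group of 2 samples there is no contrast to test, and every difference below describes these 2 arrays, whose spread may be technical.

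Haemoglobin is built from alpha and beta globin chains, each of which holds a haem, and is made in quantity by red cell precursors. Haem is made in nearly all cells by a pathway that starts and ends in the mitochondrion. The first enzyme, 5-aminolaevulinate synthase, exists as a general form encoded by Alas1, which haem itself represses, and an erythroid form encoded by the X-linked gene Alas2. The enzymes that follow condense the product to porphobilinogen, build and trim a ring, oxidise it to protoporphyrin and insert iron. Haem is also the prosthetic group of cytochromes, catalase and the myeloperoxidase of myeloid granules.

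Signals are quantile-normalized array intensities. A signal counted as above the control level when it exceeded the 90th percentile of 15 probe sets for bacterial genes on the same array, 12.1 in sample 1 and 8.91 in sample 2. Differences were taken as log2 of sample 1 minus log2 of sample 2 after signals under 20 were set to 20. A fold against a sample under this floor is therefore a lower bound, written "at least". A probe set with both signals under it is given no fold of its own. In the medians, shares and replicate SD over probe sets or genes above the control level it was kept and counted as unchanged. This draws those values towards no change. The 2 arrays had 12422 probe sets besides controls, with 57.6% of the values in each under the floor. Probe sets above the control level had a replicate SD of 0.58 on the log2 scale. Of these 6118 probe sets, 4225 had both signals at or above the floor, so the SD is a low yardstick for them. The 3′ to 5′ signal ratio of the array's control probe sets, which grows where the 5′ parts of transcripts are lost or not copied, was 10.4 in sample 1 and 22.2 in sample 2 for Actb, and 11.2 and 19.0 for Gapdh. Kit, one of the sorting antigens, gave 25.8 in sample 1 against 19.4 in sample 2, and Ly6a, which encodes Sca-1, was not analysed here.

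Globin signal and the signal of the first 2 haem enzymes differed between the samples in opposite directions. The 3 globin probe sets above the control level were 3.19-fold to 22.3-fold higher in sample 2, while Alas1 and Alad, the genes of the first and second enzymes of the pathway, were 7.38-fold and 3.83-fold higher in sample 1. The genes of later enzymes, Urod and Cpox, were less than 2-fold apart, and Ppox was at least 1.71-fold higher in sample 2. Alas2 was not above the control level in either sample. Of the 9 genes, 7 had a probe set above the control level in both samples, where 58.2% of all named genes did. By probe set it was 10 of 14, where the share of all probe sets was 49.3%. The genes that did not pass were Alas2 and Fech.

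The upstream sequences of the globin genes and of the first enzymes are shown because the globins, Alas1 and Alad carry the difference. Alas2 is shown as the erythroid counterpart of Alas1. Each is the 250 bases before the furthest upstream RefSeq start of the gene in GRCm38.p6, read 5′ to 3′ on the gene's own strand, and 7 of the 9 genes had an entry. Hbb-bs and Hbb-bt stand for the beta globin genes, since the shared beta globin probe sets name both. Capitals mark matches, on either strand, to 4 motifs: GATAA, the core of sites for GATA factors, CACCC, the box bound by Kruppel-like factors, CCAAT, and ATATAA, of the TATA type.
Hba-a1, chr11:32283422-32283671, plus strand: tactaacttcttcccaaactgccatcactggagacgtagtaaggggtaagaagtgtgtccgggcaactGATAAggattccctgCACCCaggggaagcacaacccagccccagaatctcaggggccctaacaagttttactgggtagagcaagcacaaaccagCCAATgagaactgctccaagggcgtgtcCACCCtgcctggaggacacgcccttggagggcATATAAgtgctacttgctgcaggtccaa
Hbb-bs, chr7:103827929-103828178, minus strand: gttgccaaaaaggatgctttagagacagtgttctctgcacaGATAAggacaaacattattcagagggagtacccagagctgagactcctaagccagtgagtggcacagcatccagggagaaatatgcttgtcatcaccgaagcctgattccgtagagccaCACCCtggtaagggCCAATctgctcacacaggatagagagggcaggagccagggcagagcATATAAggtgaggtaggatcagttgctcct
Hbb-bt, chr7:103813924-103814173, minus strand: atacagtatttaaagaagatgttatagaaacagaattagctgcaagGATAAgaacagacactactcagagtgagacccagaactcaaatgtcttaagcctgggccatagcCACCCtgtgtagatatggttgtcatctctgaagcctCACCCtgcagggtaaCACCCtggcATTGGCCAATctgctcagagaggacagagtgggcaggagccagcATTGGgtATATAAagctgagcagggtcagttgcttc
Alas2, chrX:150547167-150547416, plus strand: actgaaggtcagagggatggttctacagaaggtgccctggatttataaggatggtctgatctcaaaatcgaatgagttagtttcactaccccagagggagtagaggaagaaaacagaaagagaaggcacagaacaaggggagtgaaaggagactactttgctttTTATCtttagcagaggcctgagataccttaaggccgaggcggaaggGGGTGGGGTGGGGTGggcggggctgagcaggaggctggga
Alas1, chr9:106247955-106248204, minus strand: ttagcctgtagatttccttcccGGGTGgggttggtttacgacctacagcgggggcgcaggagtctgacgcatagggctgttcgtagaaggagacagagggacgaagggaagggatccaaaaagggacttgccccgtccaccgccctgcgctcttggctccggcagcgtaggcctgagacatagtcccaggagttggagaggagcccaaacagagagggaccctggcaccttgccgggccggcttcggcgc
Alad, chr4:62520064-62520313, minus strand: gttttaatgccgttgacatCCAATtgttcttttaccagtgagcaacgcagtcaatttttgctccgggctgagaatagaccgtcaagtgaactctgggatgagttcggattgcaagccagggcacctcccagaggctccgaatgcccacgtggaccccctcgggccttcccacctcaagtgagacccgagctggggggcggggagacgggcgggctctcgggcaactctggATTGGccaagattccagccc

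The 3 globin sequences each held all 4 motifs, with ATATAA starting 28 bases before the start in Hba-a1, 30 before it in Hbb-bs and 29 before it in Hbb-bt. Of 27025 mouse genes with a window of this length, 23.0% held GATAA, 51.3% CACCC, 34.5% CCAAT, 9.5% ATATAA and 0.48% all 4. In Hbb-bt 2 of the 3 CCAAT matches, 1 on each strand, adjoined, and no matches overlapped. Alas2 held GATAA once and CACCC 3 times in a row, all on the opposite strand, with CCAAT and ATATAA absent from this window. Alas1 held only CACCC, once, and Alad only CCAAT, 2 times. A match is a run of letters and not a measured site. The 4 motifs were picked by hand and include types known from globin genes, and the 3 globin genes are related to each other. The presence of all 4 in the globin sequences is therefore no test. The shares only describe how common the motifs are. The windows of Hba-a1 and its neighbour Hba-a2 shared an identical run of 297 of the 300 bases in the table, whereas the longest identical run between Hbb-bs and Hbb-bt was 14 bases. The annotation assigns 3 of the 4 globin probe sets to several genes each, and their signals below are not assigned to 1 copy of alpha or beta globin. Probe sequences were not used here.

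Alpha globin was measured by 2 probe sets, and both were higher in sample 2. The probe set that names Hba-a1 alone (94781_at) gave 30.1 in sample 1 against 670.3 in sample 2 (log2 mean 7.15 ± 3.17, SD, n = 2), a log2 difference of -4.48 or 22.3-fold. Sample 1 was thus next to the floor and sample 2 far above it. The probe set shared by Hba-a1 and Hba-a2 (162457_f_at, where f marks probes common to a gene family) gave 78.8 in sample 1 against 590.0 in sample 2 (7.75 ± 2.05, SD, n = 2), which is 7.49-fold. Both probe sets had the same direction, but the folds differed by more than the replicate SD of all probe sets.

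Beta globin had no probe set of Hbb-b1 alone. The probe set shared by Hbb-b1, Hbb-b2, Hbb-bs and Hbb-bt (101869_s_at) had 65.5 in sample 1 and 209 in sample 2 (6.87 ± 1.18, SD, n = 2), 3.19-fold higher in sample 2. A second probe set annotated to the same 4 genes (160560_at) had 3.75 in sample 1 and 2.15 in sample 2 and was above the control level in neither. The 2 beta globin probe sets therefore disagreed on whether beta globin was measured at all. Another, annotated only to Hbb-b2 and so to no member, had 12.1 in sample 1, at the control level, and 75.0 in sample 2, at least 3.75-fold higher in sample 2.

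The median log2 difference of the 3 globin probe sets above the control level was -2.90, against 0.00 over all 6118 probe sets above it. All 3 were 2-fold or more higher in sample 2, as were 9.40% of all probe sets above the control level. These 3 overlap in the transcripts they detect and are not independent measurements. Among 3329 other genes with both signals above the floor, taken by 1 single-gene probe set each and without the alpha globins, 0 were as far towards sample 2 as 94781_at and 8 were as far as 162457_f_at. Genes with a signal under the floor were not ranked, and some of them may differ by more. The mean log2 signal over the 3 globin probe sets was 7.26 ± 2.13 (SD, n = 2). In sorted cells measured in bulk, more globin-expressing cells and more globin RNA per cell cannot be told apart.

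**Figure D1:**
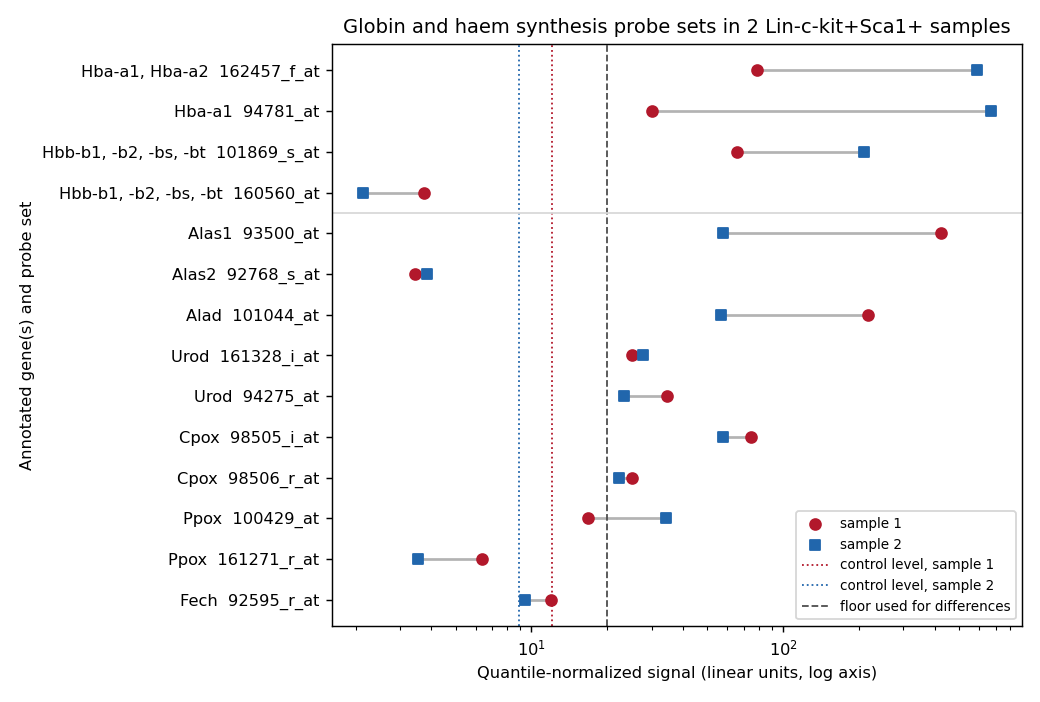
Quantile-normalized signal of the 14 probe sets (log axis) in sample 1 (circles) and sample 2 (squares), with each sample's control level as a dotted line and the floor of 20 dashed. The upper 4 rows are globin probe sets, of which 3 lie further right in sample 2; in the lower 10 rows Alas1 and Alad lie further right in sample 1, and the others have short spans or signals near or under the control levels.

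None of the embryonic globins passed the control level in both samples. The genes named in this paragraph are given to complete the list, outside the rule for naming genes, and were chosen after their values were seen, as was Kit above. Hba-x, the embryonic alpha-like gene, had 6.95 in sample 1 and 12.0 in sample 2, and Hbb-bh1, an embryonic beta-like gene, had 12.1 and 8.70. The embryonic beta-like gene Hbb-y had 7.85 and 6.50 by 1 probe set and 3.35 and 13.2 by the other. Myoglobin (Mb), the oxygen store of muscle, likewise did not pass it in both. The alpha globin pseudogene Hba-ps3 had 47.6 in sample 1 and 85.6 in sample 2, 1.80-fold higher in sample 2, the direction of the alpha globin probe sets. Whether its probes share sequence with Hba-a1 is not shown by the files. Of the 16 other globin genes listed, 9 had a probe set and 5 passed the control level in both samples, but 4 of these 5 were measured through the probe sets shared with Hba-a1 or Hbb-b1.

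The pathway's first step was measured for the general enzyme and not for the erythroid one. Alas1 (93500_at) gave 425 in sample 1 against 57.7 in sample 2 (log2 mean 7.29 ± 2.04, SD, n = 2), a log2 difference of 2.88 or 7.38-fold. Both signals were well above the control levels, with sample 1 the higher. Among the same 3329 genes, 4 others were as far towards sample 1. Alas2 (92768_s_at) had 3.45 in sample 1 and 3.85 in sample 2, under both control levels. A single probe set stands behind each of these genes.

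Alad encodes the enzyme that joins a pair of aminolaevulinate molecules into porphobilinogen. Its probe set gave 217 in sample 1 against 56.5 in sample 2 (6.79 ± 1.37, SD, n = 2), 3.83-fold higher in sample 1, and 65 other genes of the 3329 were as far in that direction. Uros, which encodes the enzyme that closes the ring and is not among the 9 genes, had 24.0 in sample 1 and 28.8 in sample 2, 1.20-fold higher in sample 2 and close to the floor in both.

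Urod, the decarboxylase of uroporphyrinogen, was measured by 2 probe sets that did not share a direction. One (94275_at) had 34.5 in sample 1 and 23.4 in sample 2, 1.48-fold higher in sample 1 (4.83 ± 0.40, SD, n = 2). The other (161328_i_at) had 25.1 and 27.8, 1.11-fold higher in sample 2 (4.72 ± 0.10, SD, n = 2). Both differences were smaller than the 2-fold threshold and within the replicate SD of all probe sets.

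Cpox, which encodes coproporphyrinogen oxidase of the mitochondrial intermembrane space, was also measured by 2 probe sets. They had 74.6 in sample 1 and 57.5 in sample 2 (98505_i_at, 6.03 ± 0.27, SD, n = 2), and 25.2 and 22.2 (98506_r_at, 4.57 ± 0.13, SD, n = 2). These are 1.30-fold and 1.13-fold higher in sample 1, differences within the replicate SD of all probe sets.

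Ppox, which encodes protoporphyrinogen oxidase, had 16.8 in sample 1, under the floor, and 34.2 in sample 2 by 1 probe set (100429_at), at least 1.71-fold higher in sample 2. This was the one enzyme gene with its stronger probe set higher in sample 2. Its other probe set (161271_r_at) had 6.35 and 3.55, under both control levels. Fech, the gene of ferrochelatase, which inserts iron into protoporphyrin, had 12.0 in sample 1, just under the control level of 12.1, and 9.45 in sample 2, just above the control level of 8.91. Its only probe set (92595_r_at) carries the suffix r, which Affymetrix gives where selection rules had to be dropped.

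Over the 5 enzyme genes above the control level, with 1 probe set per gene, 4 were higher in sample 1 and 1 in sample 2, and the median log2 difference was 0.57, against 0.00 over all 5160 genes so measured. By probe set, 2 of 7 were 2-fold or more higher in sample 1, as were 10.5% of all probe sets above the control level, and 0 of 7 were 2-fold or more higher in sample 2 with the floor, under which the Ppox difference is only a bound. The mean log2 signal over the 5 genes was 5.93 ± 0.71 (SD, n = 2). Counting globins and enzymes together, 5 of the 10 member probe sets above the control level were 2-fold or more apart, where 19.9% of all probe sets were. Where neither signal was under the floor it was 5 of 9, where the share was 22.7%. Signals of globins and enzymes are not set against each other in size, since signals of different probe sets are not on a common scale of abundance.

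**Figure D2:**
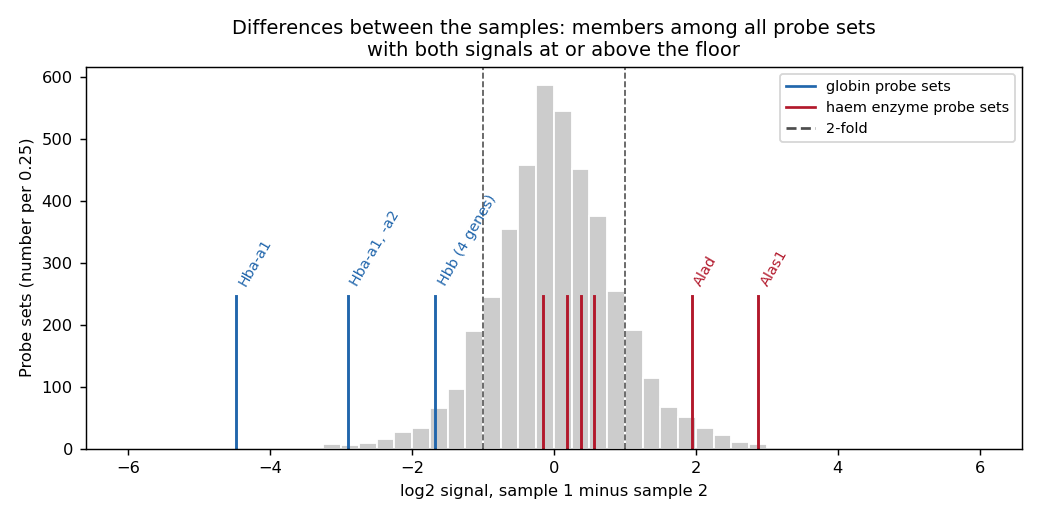
Histogram of log2 signal in sample 1 minus sample 2 over the 4225 probe sets with neither signal under the floor (number per 0.25), with the 9 member probe sets among them as vertical lines and 2-fold as dashed lines. The 3 globin lines, from -4.48 to -1.67, lie left of the 2-fold line, Alad (1.94) and Alas1 (2.88) lie right of the other, and the 4 lines of Urod and Cpox lie between.

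Genes that carry, sense and break down haem were 2-fold or more apart about as often as all genes. Of 22 listed, 17 had a probe set and 12 passed the control level in both samples, with 2 of the 12 being 2-fold or more higher in sample 1, 0 higher in sample 2 and a median log2 difference of 0.11. Over all genes above the control level, 10.9% were 2-fold or more higher in sample 1 and 10.3% in sample 2. Hp, which encodes haptoglobin, the plasma protein that binds free haemoglobin, had 206 in sample 1 and 49.4 in sample 2, 4.16-fold higher in sample 1. Abcb10, a transporter gene of the inner mitochondrial membrane needed for haem synthesis in red cell precursors, had 46.1 and 11.9, at least 2.30-fold higher in sample 1, and is outside the rule for naming genes and was chosen after its values were seen. Tspo, the gene of a porphyrin-binding protein of the outer mitochondrial membrane, had 444 and 241. Bach1, a haem-binding repressor, had 113 and 184 by its stronger probe set, and Blvra, which encodes biliverdin reductase, had 26.5 and 51.8, the last 1.95-fold higher in sample 2. Hmox1, the haem-degrading enzyme that Bach1 represses, had 103 and 84.0 and was likewise chosen after its values were seen.

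Genes of iron uptake, storage and iron-sulphur clusters showed 1 difference past 2-fold. Of 24 listed, 16 had a probe set and 10 passed the control level in both samples, with 1 being 2-fold or more higher in sample 1, 0 higher in sample 2 and a median log2 difference of 0.19. The shares of all genes above the control level were 10.9% and 10.3%, so the count of 1 is close to the share for sample 1. The gene past 2-fold was Nfs1, the cysteine desulphurase that supplies sulphur for iron-sulphur clusters, with 66.3 in sample 1 and 26.9 in sample 2, 2.46-fold. The ferritin heavy chain gene Fth1 had 919 and 1722 by 1 probe set, 1.87-fold higher in sample 2, and 144 and 186 by another. The ferritin light chain probe set, shared by Ftl1 and a pseudogene, had 587 and 369.9, 1.59-fold higher in sample 1. Pcbp1, an iron chaperone gene, had 237 and 303.

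Erythroid genes differed between the samples in both directions. Of 30 listed, 19 had a probe set and 14 passed the control level in both samples, with 2 of the 14 being 2-fold or more higher in sample 1, 4 higher in sample 2 and a median log2 difference of -0.21. The shares of all genes were 10.9% and 10.3%. Car1, a carbonic anhydrase gene of early red cell precursors, gave 488 in sample 1 against 75.9 in sample 2, 6.43-fold higher in sample 1, and Klf1, the Kruppel-like factor that binds the beta globin CACCC box, had 215 and 80.5, 2.67-fold higher in sample 1. Zfpm1, a partner of Gata1, had 123 and 296 and Nfe2, a globin enhancer factor, 213 and 442, both higher in sample 2. Of the 11 defining markers 6 had a probe set and 4 passed the control level in both samples. Slc4a1, the anion exchanger of the red cell membrane, had 19.5 and 68.3, at least 3.42-fold higher in sample 2, and Rhag, of the Rh complex, had 42.0 and 92.2, 2.19-fold higher in sample 2. The other 3 of the 6 defining markers, given here to complete them, were Gata1 with 37.0 and 26.9, Epor with 9.55 and 41.5 and Epb42 with 3.75 and 12.6. By a second probe set Gata1 had 19.4 and 3.10 and Epb42 had 7.15 and 1.70, all under the floor. Epor and Epb42 were under the control level in sample 1. The summed signal of the defining markers was 327 in sample 1 and 322 in sample 2, of which Klf1 alone gave 215 and 80.5. That of all 19 erythroid genes was 1777 and 1749. Sums here and below add signals of probe sets that share no common scale, genes under the control level included. They do not measure cell content, and near-equal sums do not show equal erythroid content. The part of erythroid cells in the globin difference was not tested.

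Markers of other blood cells also differed between the samples. Myeloid progenitor and granule genes, of which 12 of 15 listed had a probe set and 10 were above the control level, included several that, like Alas1 and Alad, were higher in sample 1. Of these 10, 5 were 2-fold or more higher in sample 1 and 0 in sample 2, beside 10.9% and 10.3% of all genes, with a median log2 difference of 0.87 and a summed signal over the 12 of 3166 in sample 1 and 1253 in sample 2. Mpo, the gene of the haem enzyme myeloperoxidase, had 1862 and 288, 6.47-fold, and Prtn3 459 and 342. Csf1r had 108 and 39.5 by its stronger probe set, and 34.8 and 37.4 by the other. Irf8 was higher in sample 2, with 128 and 226. Early lymphoid genes, 11 of 12 with a probe set and 7 above the control level, included several that, like the globins, were higher in sample 2. Of these 7, 5 were 2-fold or more higher in sample 2 and 0 in sample 1, beside 10.3% and 10.9% of all genes, with a median log2 difference of -1.89 and summed signals of 1329 in sample 1 and 1989 in sample 2. Dntt had 83.3 and 374, Notch1 22.4 and 178, and Flt3 137 and 322. Ighm was 1.40-fold higher in sample 1 by its strongest probe set, with 935 and 667, but its other probe sets did not all share this direction. That probe set gave the largest part of both lymphoid sums. The part of these cell types, and that of the difference in 3′ to 5′ ratio, in the globin and enzyme differences was not tested.

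Megakaryocyte genes, 9 of 14 with a probe set and 5 above the control level, had 0 genes 2-fold or more apart in either direction, beside the same shares of all genes, and a median log2 difference of -0.46, with summed signals of 517 in sample 1 and 462 in sample 2. Those named by the rule were F2r at 332 and 209, Nbeal2, 1.37-fold higher in sample 2, Cd9 at 31.5 and 59.1 and Vwf at 33.0 and 53.8. F2r gave the largest part of both sums and was higher in sample 1, whereas the others named were higher in sample 2. Whether F2r marks megakaryocytes in these cells was not tested. Stem cell genes, 15 of 18 with a probe set and 11 above the control level, had 1 gene 2-fold or more higher in sample 1 and 3 in sample 2, beside 10.9% and 10.3% of all genes, a median log2 difference of -0.38 and summed signals of 2109.6 and 4721. The gene higher in sample 1 was Myb, with 490.4 and 232, and those higher in sample 2 included Lyl1, with 695 and 2224, and Eng, with 419 and 1699.9.

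**Figure D3:**
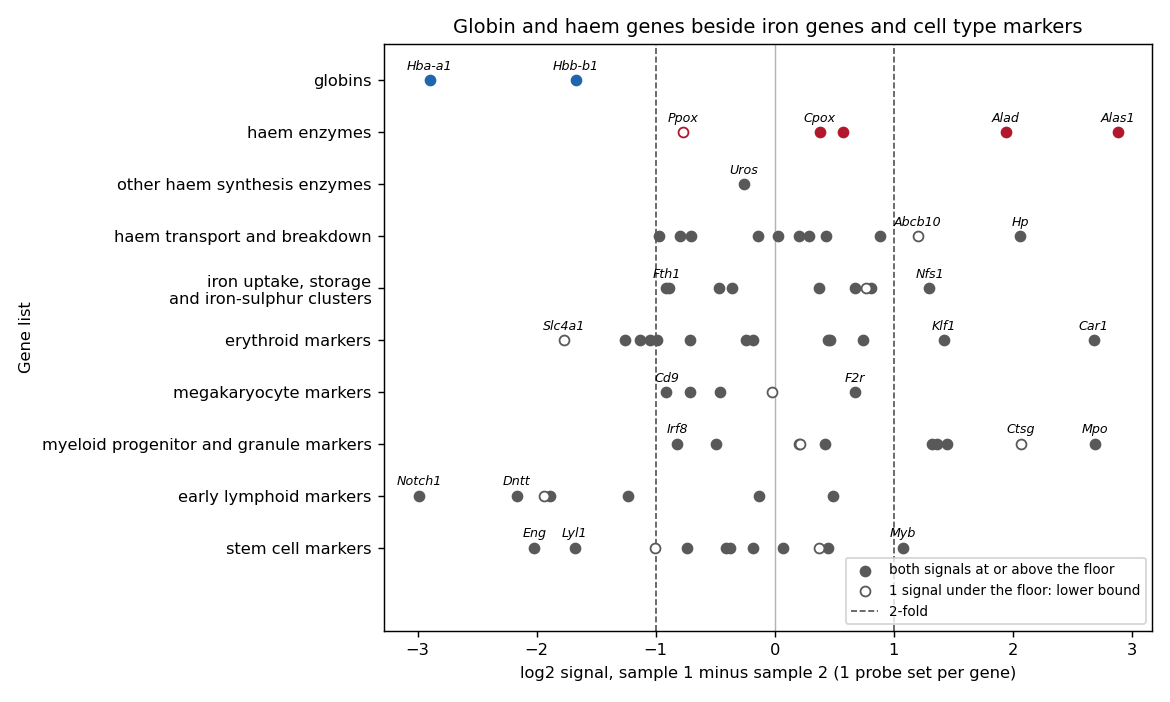
Log2 signal in sample 1 minus sample 2 for genes above the control level in both samples, 1 probe set per gene, by gene list, with the globins and haem enzymes in the top 2 rows. Open circles have 1 signal under the floor and are lower bounds, and genes with both under it are not drawn. The globins lie left of -1 and Alas1 and Alad right of 1, while the erythroid genes lie on both sides of 0.

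The genes whose difference was nearest to that of the strongest alpha globin probe set, 162457_f_at with a log2 difference of -2.90, were sought among the same 3329 genes. Likeness was the gap between the log2 differences over 2 samples, which says only that the ratios are close. The nearest was Tapbp, the gene of the MHC class I loading factor tapasin, with 46.2 in sample 1 and 336 in sample 2 and a gap of 0.04. Zfp36l1, an mRNA decay factor, had 33.0 and 237 (gap 0.06), Gnas, the gene of a G protein alpha subunit, 391 and 2775 (gap 0.08), Notch1 a gap of -0.08, and the chemokine gene Ccl3 20.1 and 161 (gap -0.10). No such search was made for Alas2, whose signals were under the floor.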

How the data were processed

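RNA of 2 samples of 1 group was hybridised to Affymetrix mouse arrays after 2 rounds of amplification, per the labels. The deposited values are linear signal intensity values, 1 per probe set, and their means were 53.944 in each, which fits a shared scaling by the authors. The software is not stated in the labels. No scanner files were used, and the number of arrays limits the precision.

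Both arrays were quantile-normalized over all 12488 probe sets, the 66 control probe sets included, which were then left out of counts. Signals under 20 were set to 20 before log2. Gene names came from the platform annotation: 10833 probe sets named 1 gene, 396 several and 1193 none. All 9 genes matched the GRCm38.p6 gene table. Each gene took the value of its strongest probe set by mean log2 signal, shared sets included. Unfloored, the median difference of probe sets above the control level was 0.08, against 0.18 as deposited and 0.05 when median-centred. With the floor it was 0.00, 0.02 and 0.00.

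Named besides the 9 genes were, per list, the 3 strongest genes past the control level and the 2 most different with both signals above the floor (exceptions are marked), plus the 5 nearest to the strongest Hba-a1 probe set. The members and lists were chosen with earlier results of these data known. The normalization and log2 differences were tested on simulated data, with less noise than these arrays and changes in stronger probe sets only. The control level and the choice of probe set were not tested in this way. Python 3.11.15, numpy 2.4.6, pandas 2.3.3 and matplotlib 3.10.9 were used. The alternatives were other scalings, floors, an offset, control levels, probe set rules and each sample alone.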

Additional observations from a re-analysis of the deposited data

How the results depend on the processing

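None of the alternatives run turned a direction, but many could not have done so. Another floor or an offset keeps the order of the 2 signals of a probe set. Counts and mean signals have no direction to turn. Of 35 values of the main results recomputed under an alternative other than each sample alone, 32 stayed within the replicate spread or, for counts, within 1.5 times the reported count. These bounds are wide. The SD of the mean globin signal was 2.13 on the log2 scale, and a fall from 7 to 5 genes counted as within. The tally therefore says little about stability. The median log2 difference of the globin probe sets was -2.29 with no filter on low values, which adds the beta globin probe set under the control level, and -4.48 with the 1 probe set naming Hba-a1 alone. The mean log2 signal of the haem enzyme genes was 6.65 with an offset of 32, which by construction raises low signals. Left with sample 2 or sample 1 alone, it ranged from 5.25 to 6.43, that of the globin probe sets from 5.75 to 8.77, and the number of genes above the control level from 7 to 8. With sample 2 alone Fech also passed the control level, so the enzyme mean of 5.25 is over another set of genes. With 2 samples these ranges say nothing about stability. The number of genes above the control level was 5 when every probe set of a gene was required. Of 50 values for single probe sets, 47 stayed within the spread. The exceptions were 94781_at at -3.74 with a floor of 50 and -3.50 with the offset, and Ppox at 0.00 with a floor of 50, where both its signals lie under it. Without a floor Ppox was -1.03, past 2-fold. No paired analysis was possible because the 2 samples form 1 group. Signals near the control level, as for Fech and Hbb-b2, limit what can be said of them.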
